A study of Homo sapiens with 6 samples.

Results

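The genes described here encode the subunits of the oxidative phosphorylation complexes that are transcribed in the nucleus. They were chosen by symbol, as the protein-coding NDUFA, NDUFB, NDUFC, NDUFS and NDUFV genes without assembly factors, the SDH genes, the UQCR genes with CYC1, the COX4 to COX8 genes, and the ATP5F, ATP5M and ATP5P genes. The rule took 88 of the 61498 genes in the deposited tables. These were 37 genes of complex I, 4 of complex II, 10 of complex III, 19 of complex IV and 18 of complex V, with NDUFA4 and NDUFA4L2 placed in complex IV, where the protein NDUFA4 is now assigned. Of the 88 genes, 84 had enough reads to be tested.

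RNA was sequenced after removal of ribosomal RNA from untreated cells of 3 human lines, with 2 libraries a line. RPMI-8226-R is a derivative of RPMI-8226 that resists bortezomib, a drug that inhibits the proteasome, and it stands for 1 resistant line. RPMI-8226 is a multiple myeloma line, and the third line is named NCI-BL2171; all 3 carry the label B-lymphocytes. Whether the pair of libraries of a line came from different cultures is not stated in the labels. The p-values below therefore rest on the spread of 2 libraries, and that spread may be technical only.

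Libraries held between 23952370 and 29052199 estimated reads. The 6 plasma cell markers summed to between 3595 and 3681 TPM in RPMI-8226-R, between 1683 and 1787 TPM in RPMI-8226 and between 47.9 and 50.5 TPM in the NCI-BL2171-labelled libraries, where JCHAIN, TNFRSF17 and IRF4 were at 0. The 5 B cell markers used (MS4A1, CD79A, CD79B, PAX5 and CD74) summed to between 134 and 140.3 TPM in RPMI-8226-R, where MS4A1 was at 0, to between 5445 and 5605 TPM in RPMI-8226 and to between 0.786 and 1.23 TPM in the NCI-BL2171-labelled libraries, where MS4A1 and PAX5 were at 0. CD74 alone made most of these sums in both myeloma lines (5440 and 5600 TPM in RPMI-8226), where CD79A, CD79B and PAX5 stayed under 1 TPM. The 6 erythroid markers, haemoglobin genes among them, summed to between 91.1 and 102.9 TPM in RPMI-8226-R, between 23.3 and 26.6 TPM in RPMI-8226 and between 17320 and 17880 TPM in the NCI-BL2171-labelled libraries, where all 6 were above 0. In RPMI-8226-R the erythroid sum was nearly all HBA1 (91.0 and 102.9 TPM), with 4 of the 6 at 0. The NCI-BL2171-labelled libraries therefore go against their B lymphocyte label, and every comparison with them below is one with the libraries labelled NCI-BL2171. In RNA from a whole culture, fewer cells of a type and less RNA per cell cannot be told apart.

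Oxidative phosphorylation takes place in the inner mitochondrial membrane. Complexes I and II pass electrons from NADH and succinate to ubiquinone, complex III passes them on to cytochrome c, complex IV reduces oxygen, and complex V, the ATP synthase, makes ATP from the proton gradient that complexes I, III and IV build. All the complexes except complex II also contain subunits made inside the mitochondrion from the mitochondrial genome, so that their assembly draws on transcripts of both genomes. In cells that secrete much protein, such as plasma cells, the chain supplies ATP and reoxidised cofactors.

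Transcripts of the respiratory complexes did not move together between RPMI-8226-R and RPMI-8226. In edgeR, all 4 complex II genes were lower in RPMI-8226-R, and so were 8 of 10 complex III genes and 10 of 15 tested complex IV genes, whereas complex I and complex V each held both higher and lower genes. Over the 84 tested genes, 15 were higher, 38 were lower and 31 were not called by edgeR's quasi-likelihood test with Benjamini-Hochberg adjustment over all 20081 tested genes at 0.05. Among all tested genes 65.6% were called, 28.5% higher and 37.2% lower, so the members' 17.9% higher lay below and their 45.2% lower lay above the share of all genes. The members' median log2 fold change of -0.13 lay next to the median of all genes, -0.12. The 13943 tested protein-coding genes had a median of -0.07, with 33.4% higher and 38.7% lower. With at least a 2-fold change 3 members were called, 3.57% against 33.3% of all tested genes: SDHA and COX6B2 were lower and COX7B2 was higher. The lines' libraries did not overlap in CPM in 64 members, 76.2% against 80.6% of all tested genes.

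How many members counted as higher depended on the scale. Fold changes above are of CPM, read counts scaled to library size with TMM normalisation. TPM are divided by the estimated transcript length and were used without TMM normalisation. On log2(TPM + 1) the median of all genes moved up by 0.20. The limma-trend test there called 42 members higher and 18 lower, against 35.0% and 22.7% of all genes. The members' median was then 0.24, or 0.16 above that of all genes, whereas with edgeR it was 0.02 below it. Tested protein-coding genes had a median of 0.14 on log2(TPM + 1). When the trend of fold change with transcript length was removed from the edgeR fit, 42 members were higher and 27 lower, against 32.6% and 34.1% of all genes, and the median was 0.17. With an offset for each gene's effective length in each library, edgeR called 18 members higher and 34 lower, and the median was -0.08. Short transcripts as a class were lower in RPMI-8226-R: protein-coding genes under 500 bases of effective length had a median log2 fold change of -0.40 (527 genes) and those of at least 4000 bases 0.21 (1633 genes). The members are short, with a median effective length of 521.5 bases in RPMI-8226-R and 503.4 bases in RPMI-8226, against 1913 and 1822 bases over all tested protein-coding genes. The 40 members under 500 bases had a median of -0.13 and the 34 members between 500 and 1000 bases one of -0.24, where all protein-coding genes of that length had -0.19. The part of transcript length or RNA quality in the members' fold changes was not tested.

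**Figure D1:**
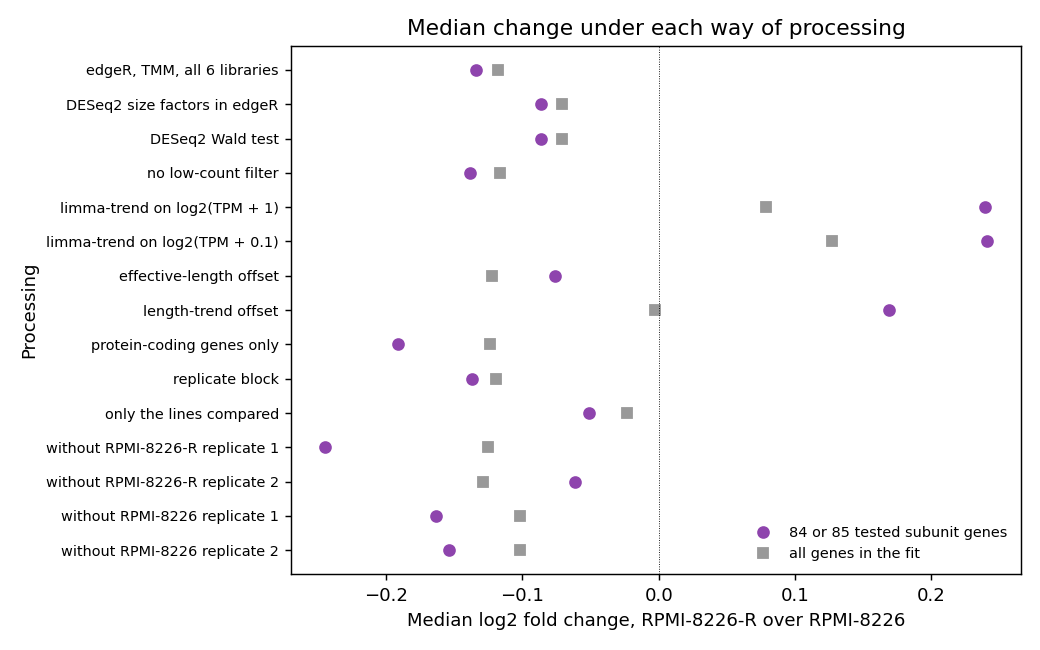
The horizontal axis gives the median log2 fold change, RPMI-8226-R over RPMI-8226, of the tested subunit genes (circles) and of all genes in each fit (squares), with 1 row for each way of processing. The members' median lies at -0.13 in edgeR and at 0.24 on log2(TPM + 1), on opposite sides of 0.

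A smaller set of calls held the same direction under the edgeR fit and every alternative scaling, filter and left-out library listed under the processing. Of the 84 members, 9 were higher in RPMI-8226-R in all of these (ATP5MC1, ATP5PB, ATP5PF, COX7B2, NDUFA6, NDUFB9, NDUFC1, NDUFS1 and NDUFV3), where 19.7% of all tested genes were. Another 18 were lower in all of these (ATP5F1B, ATP5MC2, COX4I1, COX6B2, COX6C, COX7A2, COX7C, COX8A, NDUFA1, NDUFB4, NDUFB5, NDUFS4, NDUFV1, SDHA, SDHD, UQCRB, UQCRH and UQCRHL), where 19.5% of all tested genes were. By complex, the steady lower calls were 5 of 37 genes in complex I and 2 of 18 in complex V. In complexes II, III and IV they were 2 of 4, 3 of 10 and 6 of 15 tested genes. The 3 in complex III include UQCRH and its near-identical copy UQCRHL, which share reads and may not be separate calls. The steady higher calls were 5 in complex I, 3 in complex V, 1 in complex IV and 0 in complexes II and III.

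Which complexes lay low relative to the others did not depend on the scale. In edgeR the median log2 fold change of RPMI-8226-R over RPMI-8226 was 0.02 in complex I, -0.53 in complex II, -0.52 in complex III, -0.51 in complex IV and 0.00 in complex V. The medians on log2(TPM + 1) were 0.38, -0.18, -0.10, -0.12 and 0.35 in the same order of complexes. Set against the median of all members, complex I lay 0.14 to 0.17 above and complex V 0.10 to 0.15 above over the 11 full-data fits, whereas complex II lay 0.38 to 0.49, complex III 0.33 to 0.39 and complex IV 0.32 to 0.38 below. These medians are descriptions and carry no test.

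Summed TPM differed between complexes in the same way. The 88 genes together made 20850 ± 752 TPM in RPMI-8226-R, 19850 ± 128 TPM in RPMI-8226 and 22720 ± 379 TPM in the NCI-BL2171-labelled libraries (SD, n = 2 each). Complex V took 30.1 ± 0.219% of that sum in RPMI-8226-R and 25.7 ± 0.504% in RPMI-8226, and complex I took 30.5 ± 0.308% in RPMI-8226-R and 28.3 ± 0.238% in RPMI-8226. Complex III took 15.5 ± 0.165% in RPMI-8226-R and 19.4 ± 0.171% in RPMI-8226, complex II took 3.10 ± 0.105% in RPMI-8226-R and 4.45 ± 0.0130% in RPMI-8226, and complex IV took 20.8 ± 0.181% in RPMI-8226-R and 22.1 ± 0.424% in RPMI-8226. In each of the 5 complexes both RPMI-8226-R libraries lay on 1 side of both RPMI-8226 libraries. The exact two-sided permutation p was 0.333 each time, the smallest that 2 libraries against 2 allow. The libraries labelled NCI-BL2171 had the largest complex V share, 31.9 ± 0.341%, and the smallest complex IV share, 18.6 ± 0.153%. On the CPM scale the complex V share was 36.4 ± 0.307% in RPMI-8226-R and 32.0 ± 0.331% in RPMI-8226, and the complex III share was 14.1 ± 0.119% in RPMI-8226-R and 17.5 ± 0.255% in RPMI-8226.

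**Figure D2:**
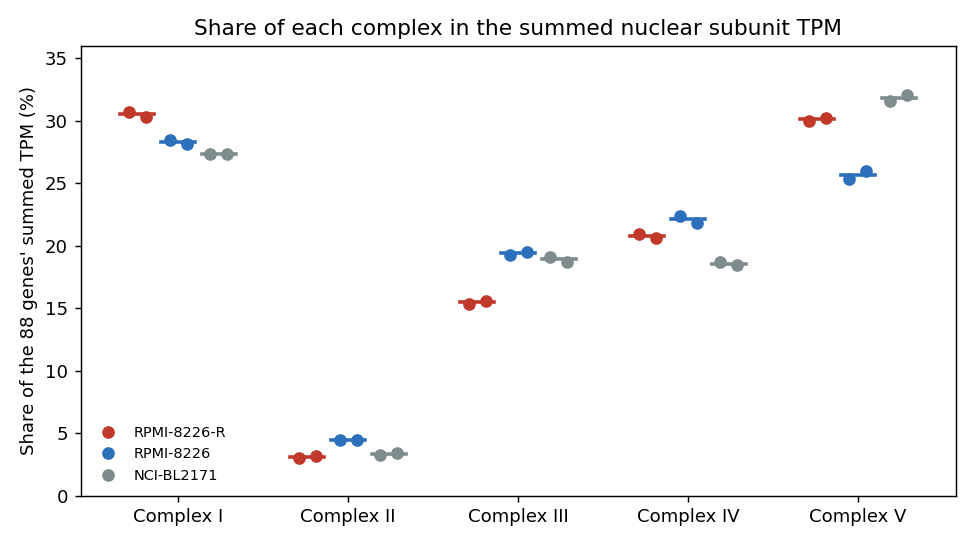
The vertical axis gives the share of each complex in the summed TPM of the 88 genes, in percent; points are libraries and bars are the mean of 2. RPMI-8226-R lies lowest in complexes II and III and highest in complex I, and RPMI-8226 lies lowest in complex V.

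**Figure D3:**
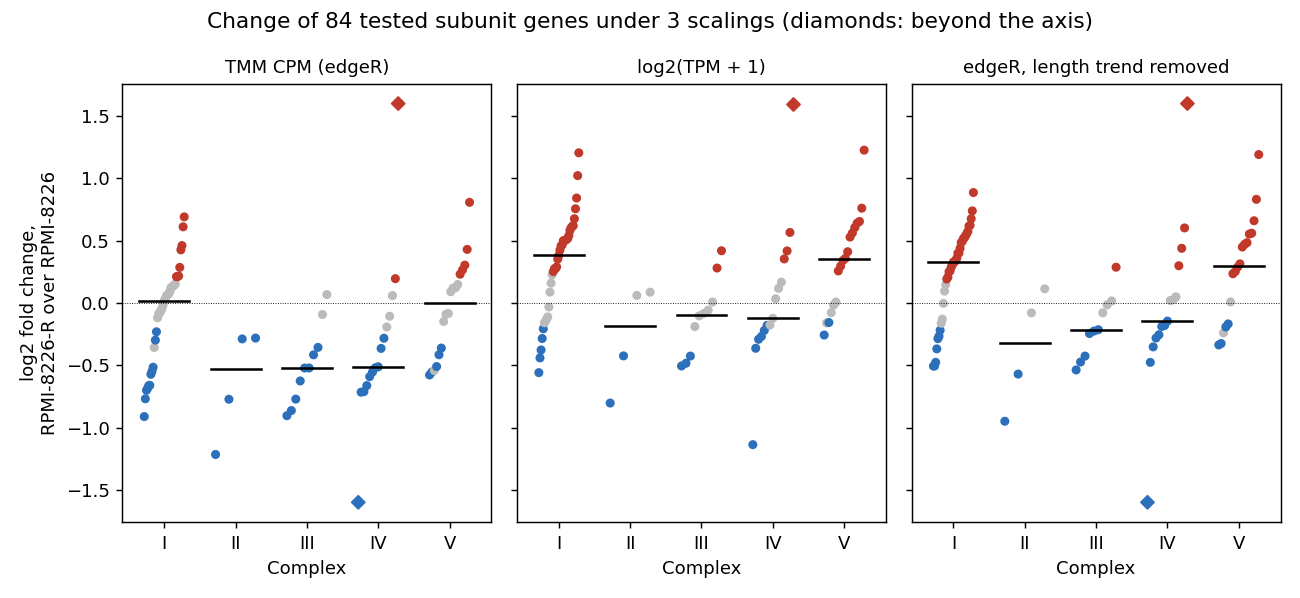
The vertical axis gives the log2 fold change, RPMI-8226-R over RPMI-8226, of each of the 84 tested genes by complex under edgeR, log2(TPM + 1) and edgeR with the length trend removed. Red points were called higher, blue points lower and grey points neither, bars are medians, and diamonds mark COX7B2 and COX6B2 where they lie beyond the axis; complexes II, III and IV sit below I and V in each panel.

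Promoter sequences are printed for 5 genes on which the account turns: SDHA and NDUFS4, which were lower in RPMI-8226-R, ATP5MC1, which was higher, and the pair COX7B2 and COX7B, which encode forms of the same subunit and differed widely in their change. RefSeq promoter windows (GRCh38.p14), 250 bases before to 50 after the annotated start, were found for 72 of the 88 members and for 15843 genes in all. Capitals mark matches, on either strand, to NRF1's core TGCGCA, which reads the same on both strands, to the ETS and GABPA core CCGGAAG, to the YY1 core AAGATGG or to the NF-Y box CCAAT, and no matches of different motifs overlap in these windows.
SDHA (chr5:218070-218369, plus strand): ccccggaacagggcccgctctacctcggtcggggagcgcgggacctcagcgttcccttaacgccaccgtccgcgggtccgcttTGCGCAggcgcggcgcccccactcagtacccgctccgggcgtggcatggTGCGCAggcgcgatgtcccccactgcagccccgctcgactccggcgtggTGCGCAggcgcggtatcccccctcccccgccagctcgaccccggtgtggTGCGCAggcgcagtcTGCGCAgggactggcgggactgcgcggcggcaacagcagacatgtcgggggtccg
NDUFS4 (chr5:53560389-53560688, plus strand): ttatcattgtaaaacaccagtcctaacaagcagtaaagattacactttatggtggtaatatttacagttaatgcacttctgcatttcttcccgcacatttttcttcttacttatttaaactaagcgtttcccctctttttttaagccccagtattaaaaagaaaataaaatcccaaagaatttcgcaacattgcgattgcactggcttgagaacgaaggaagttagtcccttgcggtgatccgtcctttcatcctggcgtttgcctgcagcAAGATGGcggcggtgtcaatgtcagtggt
ATP5MC1 (chr17:48892537-48892836, plus strand): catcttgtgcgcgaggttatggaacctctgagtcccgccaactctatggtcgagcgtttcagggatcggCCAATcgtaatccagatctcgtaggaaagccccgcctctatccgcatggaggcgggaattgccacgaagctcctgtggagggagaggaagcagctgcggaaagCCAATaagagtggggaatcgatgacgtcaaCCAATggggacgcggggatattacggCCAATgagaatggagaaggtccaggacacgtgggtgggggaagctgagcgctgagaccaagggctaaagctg
COX7B2 (chr4:46909196-46909495, minus strand): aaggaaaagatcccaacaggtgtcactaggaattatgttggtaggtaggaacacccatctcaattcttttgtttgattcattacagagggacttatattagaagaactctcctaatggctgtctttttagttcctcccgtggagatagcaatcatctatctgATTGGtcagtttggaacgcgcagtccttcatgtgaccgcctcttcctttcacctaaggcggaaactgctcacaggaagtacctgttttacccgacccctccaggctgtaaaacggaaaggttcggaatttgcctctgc
COX7B (chrX:77899218-77899517, plus strand): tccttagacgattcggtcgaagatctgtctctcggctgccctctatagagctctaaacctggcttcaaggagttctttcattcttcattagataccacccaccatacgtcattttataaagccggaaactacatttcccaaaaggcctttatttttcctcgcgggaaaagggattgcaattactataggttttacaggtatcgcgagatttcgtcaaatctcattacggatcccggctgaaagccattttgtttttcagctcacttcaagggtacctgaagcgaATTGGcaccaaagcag

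The SDHA window held 5 matches to the NRF1 core and 41 CpG pairs, and the ATP5MC1 window held 4 CCAAT boxes and 20 CpG pairs. The NDUFS4 window held 1 match to the YY1 core and 10 CpG pairs. COX7B2 had 1 CCAAT box, read here on the opposite strand as ATTGG, and 8 CpG pairs, and COX7B had 1 such box and 14 CpG pairs. A letter match is a description of the window and not a bound site. Among the 72 matched members, 27.8% held the NRF1 core against 10.8% of all 15843 windows, 27.8% held the ETS core against 14.2%, 22.2% held the YY1 core against 6.40%, and 33.3% held a CCAAT box against 36.4%. Of the 20 tested members with an ETS core, 2 were higher and 13 lower in RPMI-8226-R than in RPMI-8226 (median log2 fold change -0.36), and of the 50 without it, 10 were higher and 19 lower (median -0.07). Of the 19 tested members with an NRF1 core, 1 was higher and 12 were lower (median -0.36), and of the 51 without it, 11 were higher and 20 lower (median -0.08). Of the 16 with a YY1 core, 3 were higher and 10 lower (median -0.36), and of the 54 without it, 9 were higher and 22 lower (median -0.09). Of the 23 with a CCAAT box, 6 were higher and 8 lower (median -0.02), and of the 47 without it, 6 were higher and 24 lower (median -0.28). These counts are edgeR calls, where 28.5% of all tested genes were higher and 37.2% lower. The splits were not made on log2(TPM + 1) or over all tested genes with each motif. The motifs and their lengths were chosen after values of these genes were seen, and the splits carry no test.

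Complex II, succinate dehydrogenase, is the enzyme that the respiratory chain shares with the TCA cycle, and its 4 subunits are all nuclear. SDHA (chr5:218241-256700, GRCh38), the flavoprotein that oxidises succinate, had 193 and 189.7 CPM in RPMI-8226-R, 448 and 439.9 CPM in RPMI-8226 and 240.1 and 228 CPM in the NCI-BL2171-labelled libraries. In CPM RPMI-8226-R was the lowest of the 3 lines and RPMI-8226 the highest, with no overlap. In TPM the RPMI-8226-R libraries (268 and 293) overlapped the NCI-BL2171-labelled ones (307 and 288). SDHA fell by 1.22 on the log2 scale in RPMI-8226-R against RPMI-8226 (SE 0.06, edgeR adjusted p = 3.3e-13). Over the alternatives its log2 fold change lay between -1.27 and -0.80. SDHD, an anchor subunit in the membrane, had 121 and 110.3 CPM in RPMI-8226-R, 195 and 201 CPM in RPMI-8226 and 124 and 135 CPM in the NCI-BL2171-labelled libraries. It was lower in RPMI-8226-R by a log2 fold change of -0.77 ± 0.07 (SE; adjusted p 2.9e-09 in edgeR) and higher in RPMI-8226 than in the NCI-BL2171-labelled libraries (0.61 ± 0.07, edgeR adjusted p = 5.9e-08).

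The iron-sulphur subunit SDHB had 90.1 and 75.9 CPM in RPMI-8226-R, 100.4 and 101 CPM in RPMI-8226 and 129 and 127 CPM in the NCI-BL2171-labelled libraries. SDHC, the other anchor, had 32.3 and 32.3 CPM in RPMI-8226-R, 38.5 and 40.5 CPM in RPMI-8226 and 44.8 and 45.6 CPM in the NCI-BL2171-labelled libraries. Both were lower in RPMI-8226-R than in RPMI-8226 in edgeR (-0.28 ± 0.08 and -0.29 ± 0.08, edgeR adjusted p = 0.0026 and 0.00442), but on log2(TPM + 1) their log2 fold changes were 0.06 and 0.09, neither of them called. The SDHB call was also lost without the RPMI-8226-R library 2, at -0.16, and the SDHC call without the RPMI-8226 library 2, at -0.26. Both genes were highest in the NCI-BL2171-labelled libraries, whereas SDHA and SDHD were highest in RPMI-8226. As shares of the summed TPM of the 4 genes, SDHA took 43.5 ± 2.88% in RPMI-8226-R, 55.5 ± 0.339% in RPMI-8226 and 39.2 ± 1.91% in the NCI-BL2171-labelled libraries (SD, n = 2 each). SDHA has 4 named pseudogenes, which took 10.1%, 7.69% and 12.3% of the combined reads in RPMI-8226-R, RPMI-8226 and the NCI-BL2171-labelled libraries, and SDHB has 1, with at most 0.190%.

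In complex I, edgeR called 8 genes higher in RPMI-8226-R than in RPMI-8226, 11 lower and 18 neither. These were 21.6% higher and 29.7% lower, against 28.5% and 37.2% of all tested genes. The balance turned with the scale: 24 were higher and 5 lower on log2(TPM + 1), against 35.0% and 22.7% of all genes. Without the length trend 25 were higher and 7 lower, against 32.6% and 34.1% of all genes. Calls in both directions that held under every alternative were found among the subunits of the NADH-oxidising arm. NDUFV1, the FMN-carrying subunit where NADH is oxidised and the complex I gene with the highest TPM, had 308 and 302 CPM in RPMI-8226-R, 519 and 521 CPM in RPMI-8226 and 330.4 and 320.2 CPM in the NCI-BL2171-labelled libraries. Both RPMI-8226-R libraries lay far below both RPMI-8226 libraries, with a log2 difference of -0.77 ± 0.06 (edgeR adjusted p = 3.3e-10). NDUFV3, an accessory subunit beside it, had 74.7 and 76.3 CPM in RPMI-8226-R, 48.5 and 45.1 CPM in RPMI-8226 and 44.1 and 41.3 CPM in the NCI-BL2171-labelled libraries. It moved the other way, with RPMI-8226-R above both other lines and a log2 difference of 0.69 ± 0.08 over RPMI-8226 (edgeR adjusted p = 7.9e-08). NDUFS4 (chr5:53560633-53683340), an accessory subunit of the same arm whose loss in people causes Leigh syndrome, had 29.9 and 24.7 CPM in RPMI-8226-R, 50.5 and 52.1 CPM in RPMI-8226 and 31.1 and 30.6 CPM in the NCI-BL2171-labelled libraries. It was the gene of complex I with the largest fall in RPMI-8226-R, -0.91 ± 0.09 (edgeR adjusted p = 2.7e-08), and its level there was close to that of the NCI-BL2171-labelled libraries, from which it was not called different (-0.18 ± 0.10, edgeR adjusted p = 0.0947).

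The 7 nuclear core subunits, which carry the flavin and the iron-sulphur clusters, held 2 higher and 2 lower genes in edgeR, 5 higher and 1 lower on log2(TPM + 1), and 5 higher and 2 lower without the length trend. NDUFS1, the largest subunit, had 127 and 116 CPM in RPMI-8226-R, 87 and 93.6 CPM in RPMI-8226 and 94.6 and 89.7 CPM in the NCI-BL2171-labelled libraries. Both RPMI-8226-R libraries lay above all others (0.43 ± 0.07 over RPMI-8226, edgeR adjusted p = 2e-05). NDUFV2, a smaller flavoprotein subunit, had 114 and 94.5 CPM in RPMI-8226-R, 93.5 and 86.3 CPM in RPMI-8226 and 61.8 and 58.4 CPM in the NCI-BL2171-labelled libraries. It was called higher in RPMI-8226-R (0.21 ± 0.08, edgeR adjusted p = 0.029) but is uncertain, because its 1 named pseudogene took 78.3% of their combined reads in RPMI-8226-R and 78.1% in RPMI-8226. Beside NDUFV1, the lower core gene in edgeR was NDUFS7, which holds the last iron-sulphur cluster before ubiquinone, with 98.9 and 83.5 CPM in RPMI-8226-R, 143 and 150.3 CPM in RPMI-8226 and 152 and 143 CPM in the NCI-BL2171-labelled libraries (-0.69 ± 0.08, edgeR adjusted p = 8e-08). That call was lost on log2(TPM + 1), where its log2 fold change was -0.15.

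Among the accessory subunits, NDUFA6, of the LYR-motif family that binds the acyl carrier protein, had 59.8 and 49.2 CPM in RPMI-8226-R, 34.2 and 37.2 CPM in RPMI-8226 and 44.8 and 43.9 CPM in the NCI-BL2171-labelled libraries. It was higher in RPMI-8226-R than in RPMI-8226 (0.61 ± 0.09, edgeR adjusted p = 6.1e-06) without overlap. NDUFB9, the other LYR-motif subunit, had 171 and 154 CPM in RPMI-8226-R, 114 and 122 CPM in RPMI-8226 and 268 and 259 CPM in the NCI-BL2171-labelled libraries. It was lowest in RPMI-8226 and highest in the NCI-BL2171-labelled libraries (0.46 ± 0.07 for RPMI-8226-R over RPMI-8226 and -1.16 ± 0.07 for RPMI-8226 over the NCI-BL2171-labelled libraries, edgeR adjusted p = 4.7e-06 and 1.5e-12). NDUFB5, of the membrane arm, had 119 and 103 CPM in RPMI-8226-R, 184 and 177 CPM in RPMI-8226 and 133 and 142 CPM in the NCI-BL2171-labelled libraries. RPMI-8226-R was the lowest line and RPMI-8226 the highest (-0.70 ± 0.07, edgeR adjusted p = 2.3e-08).

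The widest gaps in complex I were those to the NCI-BL2171-labelled libraries. NDUFA1, a small subunit needed for assembly and encoded on chromosome X, had 116 and 101 CPM in RPMI-8226-R, 173 and 171 CPM in RPMI-8226 and 60.8 and 61.1 CPM in the NCI-BL2171-labelled libraries. Both myeloma lines were above the NCI-BL2171-labelled libraries, and RPMI-8226 was above RPMI-8226-R (1.50 ± 0.07 for RPMI-8226 over the NCI-BL2171-labelled libraries, edgeR adjusted p = 5.3e-14). NDUFA5, an accessory subunit of the arm that reaches into the matrix, had 63.5 and 56.1 CPM in RPMI-8226-R, 57.8 and 60.5 CPM in RPMI-8226 and 158 and 175 CPM in the NCI-BL2171-labelled libraries. The myeloma lines overlapped each other and lay far below the NCI-BL2171-labelled libraries (-1.49 ± 0.08, edgeR adjusted p = 1.5e-13). NDUFA9, which lies near the ubiquinone site, had 41.1 and 43.8 CPM in RPMI-8226-R, 56.9 and 52 CPM in RPMI-8226 and 35.3 and 22.7 CPM in the NCI-BL2171-labelled libraries. The NCI-BL2171-labelled libraries differed from each other more than those of the other lines here, and the call of RPMI-8226 over them (0.91 ± 0.20, edgeR adjusted p = 0.00675) was lost when the fit held only these 2 lines. The other complex I genes ranged in log2 fold change of RPMI-8226-R over RPMI-8226 from -0.66 for NDUFB4 to 0.29 for NDUFC1.

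**Figure D4:**
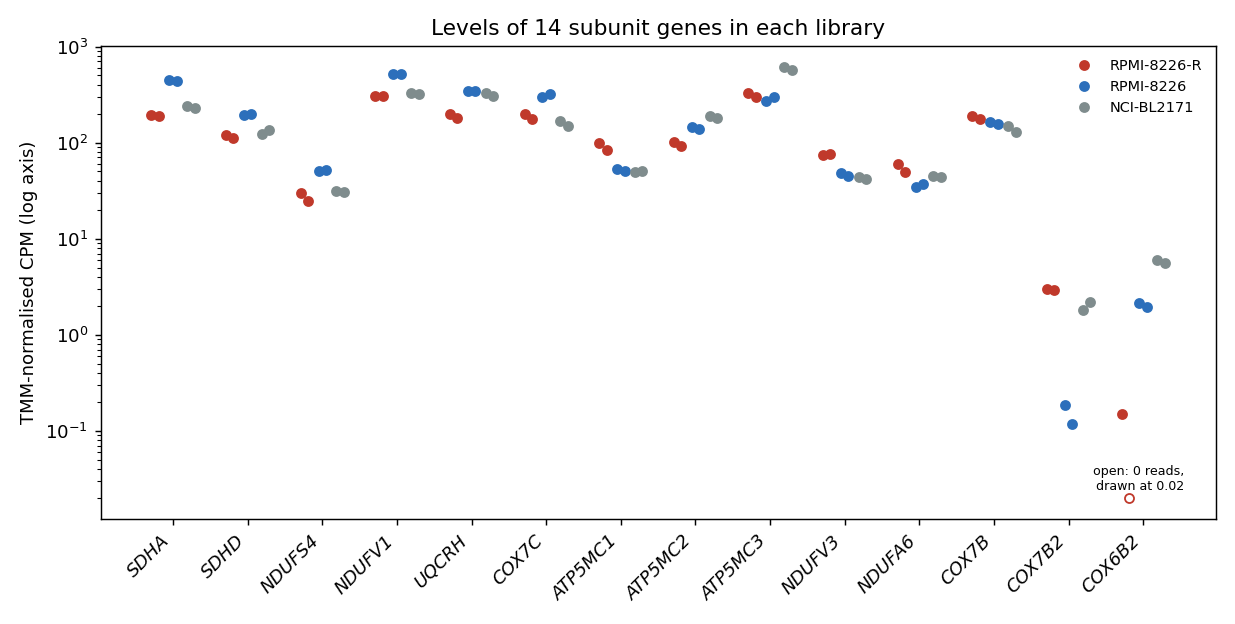
The vertical axis (log scale) gives TMM-normalised CPM in each of the 6 libraries for 14 subunit genes; each point is 1 library. SDHA, NDUFS4 and UQCRH are lower and ATP5MC1 and NDUFV3 higher in RPMI-8226-R than in RPMI-8226, and COX7B2 and COX6B2 lie below 10 CPM in every library.

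Complex III genes were lower in RPMI-8226-R than in RPMI-8226 in 8 of 10 cases and higher in 0 in edgeR, with a median log2 fold change of -0.52. There were 3 lower and 2 higher on log2(TPM + 1), and without the length trend 6 were lower and 1 higher. Among all tested genes 37.2% were lower in edgeR, 22.7% on log2(TPM + 1) and 34.1% without the length trend. UQCRH, the hinge protein that helps cytochrome c dock, had 199 and 179 CPM in RPMI-8226-R, 341 and 346 CPM in RPMI-8226 and 327 and 303 CPM in the NCI-BL2171-labelled libraries. Both RPMI-8226-R libraries lay below all others (-0.86 ± 0.07, edgeR adjusted p = 3.1e-10). UQCRHL, a copy of UQCRH without introns and the complex III gene with the highest TPM, had 300.5 and 268 CPM in RPMI-8226-R, 517 and 547 CPM in RPMI-8226 and 518 and 484 CPM in the NCI-BL2171-labelled libraries. It took 57.6 ± 0.637% of the summed TPM of the pair in RPMI-8226-R, 58.0 ± 0.322% in RPMI-8226 and 58.9 ± 0.929% in the NCI-BL2171-labelled libraries. A near-identical copy shares reads with its source gene, so that the split between these 2 genes is uncertain, and without UQCRHL complex III took 12.4 ± 0.217% of the members' TPM in RPMI-8226-R and 14.8 ± 0.253% in RPMI-8226.

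UQCRB, a small subunit that binds near the ubiquinone site, had 146 and 125 CPM in RPMI-8226-R, 225 and 238 CPM in RPMI-8226 and 259 and 257 CPM in the NCI-BL2171-labelled libraries. RPMI-8226-R was the lowest line, by -0.77 ± 0.07 on the log2 scale from RPMI-8226 (edgeR adjusted p = 5.3e-09). The calls of UQCRH, UQCRHL and UQCRB held under every alternative. UQCRH and UQCRHL share reads, so their calls, both among the 8 lower genes of the complex in edgeR, may not be separate. UQCRC2, a core protein, had 221 and 216 CPM in RPMI-8226-R, 304 and 322 CPM in RPMI-8226 and 266 and 257 CPM in the NCI-BL2171-labelled libraries. It was lower in RPMI-8226-R in edgeR (-0.52 ± 0.06, adjusted p = 2e-07) and not called on log2(TPM + 1), where its log2 fold change was -0.09. CYC1, the cytochrome c1 subunit that hands electrons to cytochrome c, had 147 and 140.5 CPM in RPMI-8226-R against 208 and 206 CPM in RPMI-8226, a log2 difference of -0.52 ± 0.07 (edgeR adjusted p = 1.7e-06), and its call too was lost on log2(TPM + 1), at -0.06.

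In edgeR 2 complex III genes were not called between the myeloma lines. UQCRFS1, the Rieske iron-sulphur protein, had 78.5 and 75 CPM in RPMI-8226-R, 71.1 and 75.5 CPM in RPMI-8226 and 95.1 and 89.9 CPM in the NCI-BL2171-labelled libraries. Its RPMI-8226-R and RPMI-8226 libraries overlapped in CPM, and both lines lay below the NCI-BL2171-labelled libraries (-0.34 ± 0.07 for RPMI-8226, edgeR adjusted p = 0.00021). In TPM the myeloma lines did not overlap, with 27.9 and 28.5 in RPMI-8226-R against 20.6 and 21.1 in RPMI-8226. The named pseudogenes of UQCRFS1 took 25.9% of the combined reads in RPMI-8226-R and 25.3% in RPMI-8226. UQCR10, a small subunit, had 71.1 and 67.1 CPM in RPMI-8226-R, 74.2 and 73.2 CPM in RPMI-8226 and 68.7 and 60.0 CPM in the NCI-BL2171-labelled libraries. Its log2 fold change of RPMI-8226-R over RPMI-8226 was -0.09 in edgeR (adjusted p = 0.3) and 0.28 on log2(TPM + 1), and its call in RPMI-8226 over the NCI-BL2171-labelled libraries (0.20 ± 0.08, edgeR adjusted p = 0.0269) turned to -0.03 there.

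Complex IV has 3 catalytic subunits from the mitochondrial genome, and its nuclear subunits include pairs of genes for the same position, many of which differ between tissues. Of the 15 tested genes 10 were lower in RPMI-8226-R than in RPMI-8226 and 2 were higher in edgeR, against 6 lower and 4 higher on log2(TPM + 1). Among all tested genes 37.2% were lower and 28.5% higher in edgeR, and 22.7% and 35.0% on log2(TPM + 1). COX4I1, the ubiquitous form of the regulatory subunit 4, had 271 and 236 CPM in RPMI-8226-R, 415 and 415 CPM in RPMI-8226 and 526 and 521 CPM in the NCI-BL2171-labelled libraries. RPMI-8226-R was lowest, RPMI-8226 lay between, and no lines overlapped (-0.71 ± 0.07 for RPMI-8226-R over RPMI-8226, edgeR adjusted p = 6.8e-09). COX7C, a small membrane subunit, had 199.8 and 175 CPM in RPMI-8226-R, 296 and 319 CPM in RPMI-8226 and 166 and 149.6 CPM in the NCI-BL2171-labelled libraries. RPMI-8226 was above both other lines (-0.72 ± 0.07 for RPMI-8226-R over RPMI-8226 and 0.96 ± 0.07 for RPMI-8226 over the NCI-BL2171-labelled libraries, edgeR adjusted p = 3.1e-08 and 1.9e-10). COX8A, the smallest subunit and the complex IV gene with the highest TPM, had 218 and 191 CPM in RPMI-8226-R, 334 and 313 CPM in RPMI-8226 and 211 and 199.5 CPM in the NCI-BL2171-labelled libraries. It followed the same order, with a log2 difference of -0.66 ± 0.07 in RPMI-8226-R over RPMI-8226 (edgeR adjusted p = 3.6e-08), and its RPMI-8226-R libraries overlapped the NCI-BL2171-labelled ones.

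The tissue-restricted genes were at or near 0. COX4I2, the form known from lung, and COX6A2 and COX7A1, the forms of heart and skeletal muscle, had 0 reads in all 6 libraries, which allows levels up to 0.103 to 0.125 CPM (3 counts in a library's total). COX8C, known from testis, had 3 and 8 reads in RPMI-8226 and 0 in the other 4 libraries, too few to test. Such floors cover counting error only.

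The other 2 testis-type genes differed between the lines in opposite directions, at low levels. COX7B2 (chr4:46734827-46909235), the testis form of COX7B, had 2.97 and 2.91 CPM in RPMI-8226-R, 0.186 and 0.119 CPM in RPMI-8226 and 1.8 and 2.17 CPM in the NCI-BL2171-labelled libraries. These were 80 and 84 reads in RPMI-8226-R, 5 and 3 reads in RPMI-8226 and 49 and 54 reads in the NCI-BL2171-labelled libraries, so that RPMI-8226 alone was near the floor. The log2 fold change of RPMI-8226-R over RPMI-8226 was 4.22 ± 0.45 (edgeR adjusted p = 3.9e-08) and lay between 2.76 and 4.62 over the alternatives. COX7B, the form of most tissues, had 191 and 175 CPM in RPMI-8226-R, 164 and 156 CPM in RPMI-8226 and 148 and 129 CPM in the NCI-BL2171-labelled libraries. Its call in RPMI-8226-R over RPMI-8226 (0.19 ± 0.07, edgeR adjusted p = 0.022) was lost without the RPMI-8226-R library 1 (0.13), the RPMI-8226 library 1 (0.23) or the RPMI-8226 library 2 (0.16). COX7B2 made 1.46 ± 0.0679% of the summed TPM of the pair in RPMI-8226-R, 0.0860 ± 0.0242% in RPMI-8226 and 1.32 ± 0.306% in the NCI-BL2171-labelled libraries (SD, n = 2 each).

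COX6B2, the testis form of COX6B1, had 0.148 and 0 CPM in RPMI-8226-R, 2.16 and 1.94 CPM in RPMI-8226 and 5.95 and 5.52 CPM in the NCI-BL2171-labelled libraries. RPMI-8226-R held 4 reads in library 1 and 0 in library 2, against 57.9 and 48.9 estimated reads in RPMI-8226, and its level was at or under the floor of 3 counts in 1 of the 2. The gene was lower in RPMI-8226-R under every fit, but the fitted log2 fold change, -4.75 ± 0.55 in edgeR (adjusted p = 1.6e-07), rests on those few reads and lay between -8.77 and -1.14 over the alternatives. COX6B1, the common form, had 112 and 95.9 CPM in RPMI-8226-R, 108 and 115 CPM in RPMI-8226 and 153 and 142 CPM in the NCI-BL2171-labelled libraries. Its myeloma libraries overlapped, it was not called between RPMI-8226-R and RPMI-8226 (-0.11 ± 0.08, edgeR adjusted p = 0.22), and on log2(TPM + 1) its log2 fold change was 0.35 and was called.

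COX7A2L, which joins complexes III and IV into supercomplexes, had 79.3 and 73 CPM in RPMI-8226-R, 106 and 112 CPM in RPMI-8226 and 178 and 164 CPM in the NCI-BL2171-labelled libraries. RPMI-8226-R was lowest and the NCI-BL2171-labelled libraries highest (-0.52 ± 0.07 for RPMI-8226-R over RPMI-8226 and -0.65 ± 0.07 for RPMI-8226 over the NCI-BL2171-labelled libraries, edgeR adjusted p = 1.6e-06 and 3.2e-08), and the first of these calls was lost on log2(TPM + 1), at -0.18. COX7A2, its relative in the enzyme itself, had 143 and 129 CPM in RPMI-8226-R, 205 and 194 CPM in RPMI-8226 and 152 and 136 CPM in the NCI-BL2171-labelled libraries. RPMI-8226 was above both other lines (-0.55 ± 0.07 for RPMI-8226-R over RPMI-8226, edgeR adjusted p = 6.1e-07). As a share of the summed TPM of the COX7A genes, COX7A2L took 18.3 ± 0.283% in RPMI-8226-R and 18.3 ± 1.19% in RPMI-8226, which overlapped, against 33.3 ± 0.263% in the NCI-BL2171-labelled libraries.

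COX6A1, the common form of subunit 6A, had 114 and 90.7 CPM in RPMI-8226-R, 135 and 129 CPM in RPMI-8226 and 102 and 95.1 CPM in the NCI-BL2171-labelled libraries. Its named pseudogenes took 51.4% of the combined reads in RPMI-8226-R and 49.7% in RPMI-8226, so its level is uncertain, and its call in RPMI-8226-R against RPMI-8226 (-0.36 ± 0.09, edgeR adjusted p = 0.00178) turned to 0.03 on log2(TPM + 1). NDUFA4, once counted as a complex I subunit, had 52.2 and 46.3 CPM in RPMI-8226-R, 64 and 55.8 CPM in RPMI-8226 and 61.6 and 52.4 CPM in the NCI-BL2171-labelled libraries. Pseudogenes took 45.5% of its combined reads in both myeloma lines, and its call (-0.28 ± 0.09, edgeR adjusted p = 0.0113) turned to 0.12 on that scale. NDUFA4L2, its relative induced by low oxygen, had 7.38 and 8.77 CPM in RPMI-8226-R, 9.22 and 9.25 CPM in RPMI-8226 and 3.52 and 2.78 CPM in the NCI-BL2171-labelled libraries. The myeloma lines were not called different from each other (-0.19 ± 0.17, edgeR adjusted p = 0.33) and both lay above the NCI-BL2171-labelled libraries (1.55 ± 0.19 for RPMI-8226, edgeR adjusted p = 2.2e-07).

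In complex V, edgeR called 5 genes higher, 5 lower and 8 neither in RPMI-8226-R against RPMI-8226. That was 27.8% each way, against 28.5% higher and 37.2% lower of all tested genes. This even split depended on the fit: 12 were higher and 2 lower on log2(TPM + 1), against 35.0% and 22.7% of all genes. In edgeR without the length trend 12 were higher and 4 lower, against 32.6% and 34.1% of all genes. The c ring, the rotor that protons turn, is built from 1 mature protein that 3 genes encode with different import peptides, and these genes parted. ATP5MC1 (chr17:48892765-48895871) had 98.2 and 84.2 CPM in RPMI-8226-R, 53.5 and 50.6 CPM in RPMI-8226 and 49.4 and 50.5 CPM in the NCI-BL2171-labelled libraries. Both RPMI-8226-R libraries lay above all others (0.81 ± 0.08 over RPMI-8226, edgeR adjusted p = 1.6e-08), and over the alternatives the log2 fold change lay between 0.69 and 1.23. ATP5MC2 had 101 and 91.4 CPM in RPMI-8226-R, 144 and 138 CPM in RPMI-8226 and 191 and 182 CPM in the NCI-BL2171-labelled libraries. It went the other way, lowest in RPMI-8226-R and highest in the NCI-BL2171-labelled libraries (-0.55 ± 0.07 for RPMI-8226-R over RPMI-8226, edgeR adjusted p = 3.6e-07). ATP5MC3 had 332 and 298 CPM in RPMI-8226-R, 272 and 297 CPM in RPMI-8226 and 606 and 565 CPM in the NCI-BL2171-labelled libraries. It was not called between the myeloma lines in edgeR (0.15 ± 0.07, adjusted p = 0.0651), was called higher in RPMI-8226-R on log2(TPM + 1), at 0.53, and was lower in RPMI-8226 than in the NCI-BL2171-labelled libraries by -1.04. Of the summed TPM of the 3 genes, ATP5MC1 made 23.1 ± 0.440% in RPMI-8226-R, 13.6 ± 1.20% in RPMI-8226 and 8.39 ± 0.308% in the NCI-BL2171-labelled libraries, and ATP5MC2 made 21.9 ± 0.238% in RPMI-8226-R, 33.8 ± 1.21% in RPMI-8226 and 27.2 ± 0.422% in the NCI-BL2171-labelled libraries (SD, n = 2 each). Neither share overlapped between lines.

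The catalytic head of the synthase alternates alpha and beta subunits in equal number, and their genes also parted. ATP5F1A, the alpha subunit, had 952 and 910.0 CPM in RPMI-8226-R, 826 and 886 CPM in RPMI-8226 and 542 and 530.2 CPM in the NCI-BL2171-labelled libraries. The RPMI-8226-R libraries lay above the others, but the difference from RPMI-8226 was not called in edgeR (0.12 ± 0.06, adjusted p = 0.0899) and was called on log2(TPM + 1), at 0.56. ATP5F1B, the beta subunit and the complex V gene with the highest TPM over the 3 lines, had 865 and 796 CPM in RPMI-8226-R, 1189 and 1177 CPM in RPMI-8226 and 1058 and 1013 CPM in the NCI-BL2171-labelled libraries. It was lowest in RPMI-8226-R (-0.51 ± 0.06 over RPMI-8226, edgeR adjusted p = 3.3e-07). Per length, ATP5F1A made 57.3 ± 0.111% of the summed TPM of the pair in RPMI-8226-R, 43.1 ± 1.33% in RPMI-8226 and 34.3 ± 0.404% in the NCI-BL2171-labelled libraries, with no overlap.

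The peripheral stalk, which holds the head still, held 2 higher and 0 lower genes of 4 in RPMI-8226-R against RPMI-8226 in edgeR, and 4 higher on log2(TPM + 1). ATP5PF, the stalk's coupling factor 6, had 181 and 159 CPM in RPMI-8226-R, 122 and 130.5 CPM in RPMI-8226 and 141 and 137 CPM in the NCI-BL2171-labelled libraries. RPMI-8226-R was the highest line (0.43 ± 0.07, edgeR adjusted p = 1.6e-05). ATP5PB, subunit b, had 91.4 and 87.1 CPM in RPMI-8226-R, 70.7 and 74 CPM in RPMI-8226 and 194 and 176 CPM in the NCI-BL2171-labelled libraries. It was higher in RPMI-8226-R than in RPMI-8226 (0.30 ± 0.07, edgeR adjusted p = 0.00076) and far higher than both in the NCI-BL2171-labelled libraries. In the membrane part, ATP5MG, subunit g, had 247 and 217 CPM in RPMI-8226-R, 343 and 350.1 CPM in RPMI-8226 and 276 and 263 CPM in the NCI-BL2171-labelled libraries. RPMI-8226 lay above both other lines, and the call in RPMI-8226-R against it (-0.58 ± 0.07, edgeR adjusted p = 1.6e-07) was lost on log2(TPM + 1), at -0.16. ATP5MGL, a relative of ATP5MG, had between 0.242 and 0.712 CPM in the 6 libraries, 6 to 18 reads each, and was called in no comparison.

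**Figure D5:**
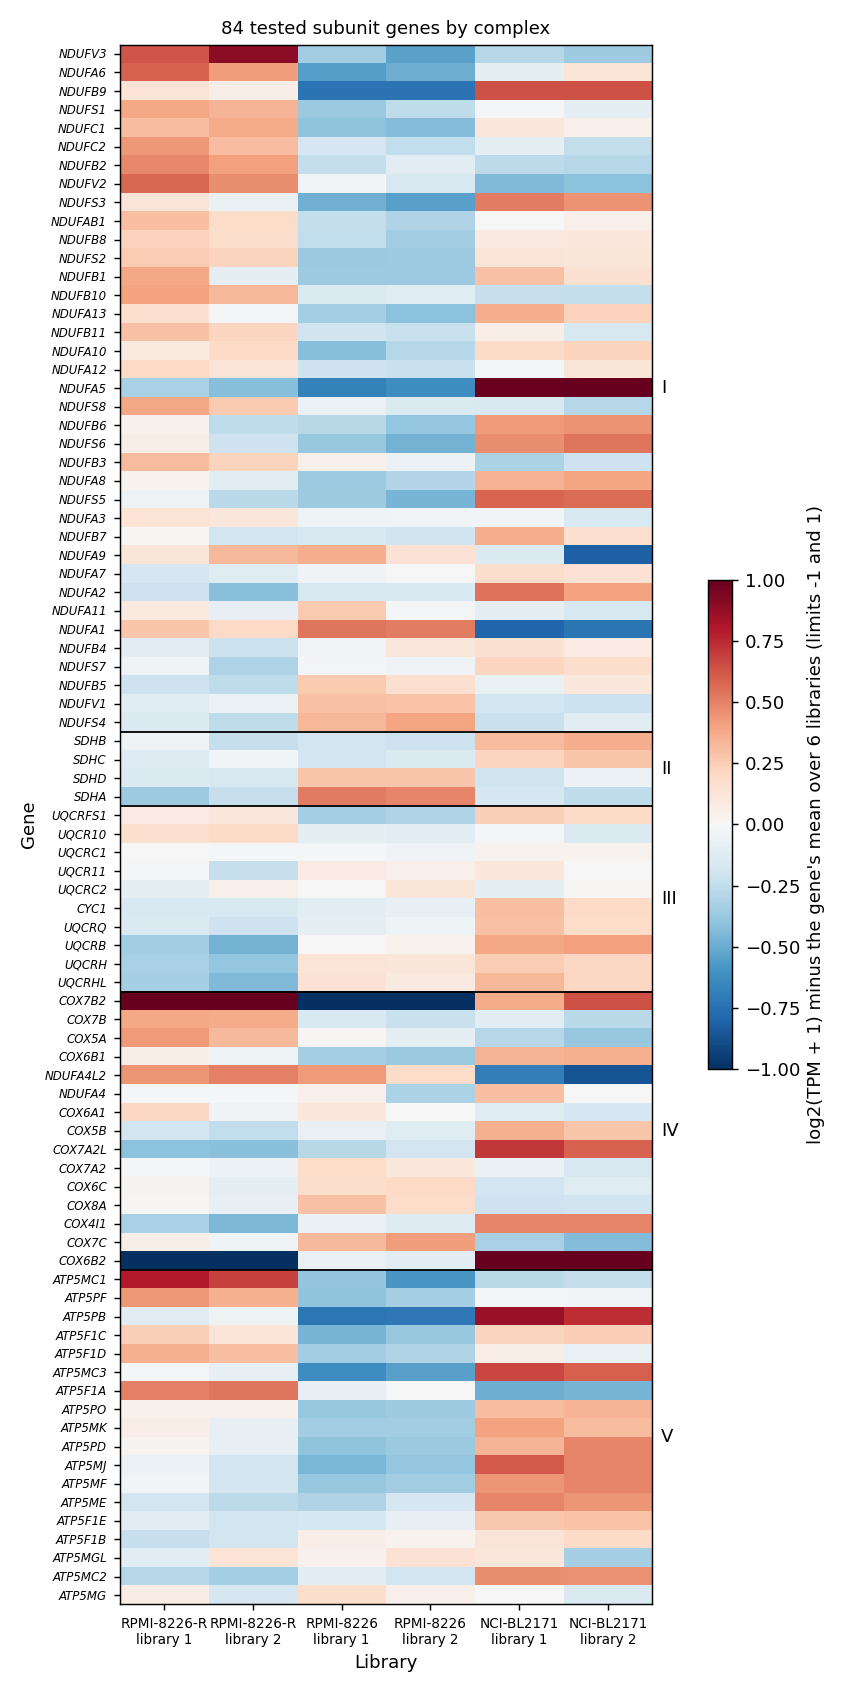
Each row is 1 of the 84 tested genes, grouped by complex, and each column 1 library; the colour is log2(TPM + 1) minus the gene's mean over the 6 libraries, clipped at -1 and 1. COX7B2 and NDUFV3 stand out as high and COX6B2 as low in RPMI-8226-R, and most complex V rows are highest in the NCI-BL2171-labelled libraries.

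Between RPMI-8226 and the libraries labelled NCI-BL2171, complex V was the complex that differed most in 1 direction. Of all 84 genes, 29 were higher and 35 lower in RPMI-8226, where edgeR called 41.1% of all tested genes higher and 35.6% lower. In complex V 3 were higher and 12 lower, with a median log2 fold change of -0.43, which is 0.52 below the median of all tested genes and stayed below the members' median in every full-data fit, by 0.33 to 0.41. The 4 stalk genes had a median of -0.53 and the 5 membrane genes ATP5ME, ATP5MF, ATP5MG, ATP5MJ and ATP5MK one of -0.65. ATP5PB showed the largest fall of the complex, -1.36 ± 0.07 (edgeR adjusted p = 1.5e-13), followed by ATP5MC3 with -1.04 ± 0.07 (edgeR adjusted p = 1.2e-11). ATP5F1A was the exception that held under every alternative, with 0.67 ± 0.06 (edgeR adjusted p = 2.5e-09). Under every alternative 14 members were higher and 27 lower, where 29.9% and 28.2% of all tested genes were. On log2(TPM + 1) the counts were 15 higher and 47 lower, against 32.2% and 38.5% of all genes. The gap in erythroid, plasma cell and B cell markers given above separates the same libraries, and its part in these differences was not tested.

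Between RPMI-8226-R and the libraries labelled NCI-BL2171, 19 members were higher and 47 lower, where 39.2% and 38.2% of all tested genes were, with a median of -0.22. This comparison shares its libraries with the previous ones. In edgeR 9 of 10 complex III genes, 13 of 18 complex V genes and all 4 complex II genes were lower, against 5, 11 and 2 on log2(TPM + 1). Complex I held 12 higher and 15 lower genes in edgeR, and 16 and 13 on log2(TPM + 1). Complex IV held 4 higher and 6 lower genes in edgeR, and 6 and 5 on log2(TPM + 1). COX4I1 (-1.05 ± 0.07), COX7A2L (-1.17 ± 0.07), ATP5PB (-1.05 ± 0.07) and NDUFA5 (-1.48 ± 0.08) were lower with at least a 2-fold change, as was COX6B2, and NDUFA4L2 was higher with one (1.35 ± 0.19). These 6 genes were 7.14% of the tested members. The share of all tested genes with such a change was not counted in this comparison. On log2(TPM + 1) 27 were higher and 36 lower, against 37.9% and 32.2% of all genes. Without the length trend 34 members were higher and 33 lower, beside 7830 and 7791 of all 20081 tested genes. Under every alternative 15 members were higher and 30 lower, where 29.9% and 28.4% of all tested genes were.

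Per length, the 84 tested genes spanned from 0.053 to 859 TPM in RPMI-8226-R (median 208), from 0.312 to 916 TPM in RPMI-8226 (median 170.0) and from 0.616 to 1018 TPM in the NCI-BL2171-labelled libraries (median 220.1). Most were strongly expressed: 63 had at least 100 TPM in RPMI-8226-R, 59 in RPMI-8226 and 66 in the NCI-BL2171-labelled libraries, and 4 were under 10 TPM in each. In RPMI-8226-R the highest were ATP5F1A, UQCRHL, ATP5F1B, COX8A and COX5A, and in RPMI-8226 they were UQCRHL, ATP5F1B, COX8A, UQCRH and NDUFV1. ATP5F1A had 859 ± 13.4 TPM in RPMI-8226-R, 582 ± 23.5 TPM in RPMI-8226 and 431 ± 4.98 TPM in the NCI-BL2171-labelled libraries (SD, n = 2 each). The order of neighbouring genes within a line was not tested.

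The 2 RPMI-8226-R libraries differed across the members. Library 1 was above library 2 in 79 of the 84 genes, by a median of 0.17 on the log2 CPM scale and 0.08 on the log2 TPM scale, whereas in RPMI-8226 library 1 was the higher in 35 of 84 (median -0.02) and in the NCI-BL2171-labelled libraries in 71 (median 0.09). These counts were not made over all tested genes, so whether the shift is particular to the members was not tested. Libraries are numbered as in the sample titles, and the names of the deposited tables give the NCI-BL2171 numbers the other way round. Leaving out 1 library moved the count of members higher in RPMI-8226-R than in RPMI-8226: 9 without the RPMI-8226-R library 1 and 24 without its library 2, and 10 and 11 without the RPMI-8226 libraries 1 and 2. The count lower lay between 34 and 43 in the same fits.

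Of the members, 50 have named pseudogenes, 189 in all, which took 7.49% of the combined reads in RPMI-8226-R, 6.55% in RPMI-8226 and 5.79% in the NCI-BL2171-labelled libraries. The share was over 10% for 14, 13 and 14 members in the same order of lines, NDUFV2, COX6A1, NDUFA4 and ATP5PD among them. By position, the 6 tested members on chromosome 5 (COX7C, NDUFA2, NDUFS4, NDUFS6, SDHA and UQCRQ) had a median log2 fold change of -0.67 in RPMI-8226-R over RPMI-8226 and 5 of them were lower, where the 584 tested protein-coding genes of that chromosome had a median of -0.01 and 36.6% were lower. The 3 on chromosome 21 (ATP5PF, ATP5PO and NDUFV3) had a median of 0.43, with 2 higher, where 44.4% of the 135 genes there were higher. These chromosomes were picked after their values were seen.

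The 13 mRNAs of the mitochondrial genome supply the remaining subunits of complexes I, III, IV and V. In edgeR 9 of them were called higher in RPMI-8226-R against RPMI-8226, 69.2% against 28.5% of all tested genes. The 13 summed to 97630 ± 10930 TPM in RPMI-8226-R, 37200 ± 863 TPM in RPMI-8226 and 18830 ± 2287 TPM in the NCI-BL2171-labelled libraries (SD, n = 2 each), with no overlap. Of the other 4, 3 were not called and MT-ND5 was lower (-0.37 ± 0.12, edgeR adjusted p = 0.0224), a call that was lost on log2(TPM + 1) and without the length trend, where 11 of the 13 were higher and 0 lower. MT-CYB, the only mitochondrially encoded subunit of complex III, had 3687 and 2822 CPM in RPMI-8226-R, 839 and 882 CPM in RPMI-8226 and 209 and 172 CPM in the NCI-BL2171-labelled libraries. RPMI-8226-R was the highest line and the NCI-BL2171-labelled libraries the lowest (1.92 ± 0.16 for RPMI-8226-R over RPMI-8226, edgeR adjusted p = 0.00017). MT-CO2, a catalytic subunit of complex IV, had 10060 and 7979 CPM in RPMI-8226-R, 3248 and 3332 CPM in RPMI-8226 and 2612 and 2079 CPM in the NCI-BL2171-labelled libraries, and was higher in RPMI-8226-R than in RPMI-8226 (1.45 ± 0.15, edgeR adjusted p = 0.00026). The nuclear complex III genes had a median of -0.52 and the nuclear complex IV genes one of -0.51 in the same comparison in edgeR. On log2(TPM + 1) these medians were -0.10 and -0.12.

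Genes that serve the complexes without being part of them were more often higher in RPMI-8226-R than in RPMI-8226. Of the 60 assembly factors 28 were higher and 14 lower (median log2 fold change 0.18), of 77 tested mitochondrial ribosomal proteins 47 were higher and 6 lower (median 0.31), and of 16 tested regulators of mitochondrial biogenesis 13 were higher and 0 lower (median 0.53), beside the 28.5% higher and 37.2% lower of all tested genes. The 18 TCA cycle genes held 8 higher and 5 lower, and 36 electron carriers and inner membrane proteins 15 higher and 13 lower. The counts on log2(TPM + 1) were 36 higher and 6 lower, 64 and 1, 12 and 0, 12 and 2, and 20 and 3, in the order assembly factors, ribosomal proteins, regulators, TCA cycle and carriers. These lists carry no test of their own. Their medians lay 0.30, 0.43, 0.65, 0.20 and 0.14 above that of all genes in edgeR, in the order assembly factors, ribosomal proteins, regulators, TCA cycle and carriers, and above it on log2(TPM + 1) too.

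Among the regulators, MYC, a transcription factor that raises many mitochondrial genes, had 996 and 1033 CPM in RPMI-8226-R, 208 and 213 CPM in RPMI-8226 and 195 and 182 CPM in the NCI-BL2171-labelled libraries. RPMI-8226-R stood far above both other lines (2.27 ± 0.06, edgeR adjusted p = 3e-17). PPRC1, a coactivator of the PGC-1 family, had 64.7 and 71 CPM in RPMI-8226-R against 17.9 and 17.7 CPM in RPMI-8226 (1.93 ± 0.09, edgeR adjusted p = 1.7e-13). NRF1, whose core sites are marked above, had 18 and 16.9 CPM in RPMI-8226-R against 12.6 and 11.6 CPM in RPMI-8226 (0.53 ± 0.13, edgeR adjusted p = 0.00128), and GABPA, the ETS factor, had 50.1 and 50.6 CPM in RPMI-8226-R against 36.5 and 33 CPM in RPMI-8226 (0.54 ± 0.09, edgeR adjusted p = 1.4e-05). TFB2M, which starts transcription of the mitochondrial genome with TFAM, had 38 and 32.6 CPM in RPMI-8226-R against 18.1 and 15.5 CPM in RPMI-8226 (1.07 ± 0.11, edgeR adjusted p = 2.1e-08), and TFAM had 64 and 66.9 CPM in RPMI-8226-R against 45.9 and 47.2 CPM in RPMI-8226 (0.49 ± 0.07, edgeR adjusted p = 3.8e-06). PPARGC1A, the best known member of its family, was not detectable at this depth, with 1 read in 1 RPMI-8226 library and 0 in the other 5 libraries.

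Among the assembly factors, the 4 of complex II held 1 higher and 1 lower gene. SDHAF2, which puts the flavin into SDHA, had 25 and 21.4 CPM in RPMI-8226-R against 9.22 and 9.57 CPM in RPMI-8226 (1.30 ± 0.13, edgeR adjusted p = 1.9e-08), whereas SDHAF4, which then guides SDHA to SDHB, had 10.2 and 9.67 CPM in RPMI-8226-R against 31 and 29.3 CPM in RPMI-8226 (-1.60 ± 0.12, edgeR adjusted p = 2.5e-10). SDHAF1 and SDHAF3 were not called in edgeR (0.05 ± 0.12 and -0.04 ± 0.10, adjusted p = 0.74 and 0.76), and both were called higher on log2(TPM + 1), at 0.43 and 0.36. COX17, the copper chaperone of complex IV, had 16.5 and 13.4 CPM in RPMI-8226-R against 42.6 and 44 CPM in RPMI-8226 (-1.53 ± 0.11, edgeR adjusted p = 1.3e-10). COA7, an assembly factor of complex IV, had 92.7 and 90.2 CPM in RPMI-8226-R against 17.4 and 18.9 CPM in RPMI-8226 (2.34 ± 0.09, edgeR adjusted p = 2.6e-15). SDHAF2, SDHAF4, COX17 and COA7 had no overlap between RPMI-8226-R and RPMI-8226. In the TCA cycle, DLAT and OGDH were the largest rises, by log2 fold changes of 1.33 and 1.08, and MDH2 and IDH3G the largest falls, -0.66 and -0.63. Of the mitochondrial ribosomal proteins, MRPL16 and MRPS17 rose most (1.73 and 1.55) and MRPL17 fell most (-1.08). Of the carriers, PDSS1, which makes the ubiquinone tail, and the outer membrane channel VDAC3 rose most (1.63 and 1.48), and the ADP/ATP carrier SLC25A6 fell most (-0.89). CYCS, cytochrome c itself, had 256 and 232 CPM in RPMI-8226-R against 197 and 208 CPM in RPMI-8226 (0.27 ± 0.07, edgeR adjusted p = 0.00119).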

How the data were processed

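Total RNA freed of ribosomal RNA was sequenced from 3 lines, 2 libraries a line. The authors deposited, per the file headers, a table per library with length, effective length, TPM and estimated counts of reads per gene. The deposited estimated counts (expected counts) were made whole by rounding for the tests. TPM, as deposited, served for levels and shares and, as log2(TPM + 1), for an alternative test. Lengths in bases, another deposited unit per the file headers, served for length offsets. GRCh38.p13 is the build named in the submitters' processing notes. The quantifier, the annotation and any use of strand were not given in the sources used here, so how reads of near-identical, overlapping or antisense genes were split is unknown.

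Reads of 46 pseudoautosomal Y copies (88666 in all) were counted with the X copy, which gave 61498 genes; 61399 had a symbol, and positions came from GENCODE 29 for 58298. The main test was edgeR's (version 4.0.16, R 4.3.3) on the counts, with TMM, filterByExpr at a minimum count of 10 and minimum total of 15, and the robust quasi-likelihood fit on 6 libraries together (3 residual degrees of freedom, two-sided, Benjamini-Hochberg over 20081 genes, threshold 0.05). The biological coefficient of variation was 6.81%. CPM are TMM-normalised. Values after ± are SE for log2 fold changes and SD of 2 libraries for levels and shares. The edgeR procedure was also run on simulated counts with few changed genes and no trend with length. That run therefore does not bear on the dependence on scale described above. The alternatives took DESeq2 1.42.0 for size factors or for a Wald test, left off the low-count filter, or used limma 3.58.1 (limma-trend) on log2(TPM + 1) and log2(TPM + 0.1), an effective-length offset, an offset that removes the trend with length, protein-coding genes alone, a replicate block, only the lines compared, and each library left out. Depths of 23952370 to 29052199 reads put 3 counts at 0.103 to 0.125 CPM; such floors cover counting error only.

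Members, lists and alternatives were chosen with earlier results of these data known. Values in every library are given for all SDH genes, sets of paralogues, the member of each complex with the highest TPM, and, per complex, up to 3 called members with the widest rise and 3 with the widest fall in RPMI-8226-R relative to RPMI-8226, and up to 2 each way for RPMI-8226 against the libraries labelled NCI-BL2171 (at least 5 TPM in the higher line). Of each list up to 2 rises and falls, and any regulator, may be named. NDUFS1, NDUFV2, NDUFS7, CYC1, SDHAF1 to SDHAF4, CYCS and MT-CO2 were named for their roles, after their values were seen. 2 read-through genes, ATP5MF-PTCD1 and NDUFC2-KCTD14, were left out. 1 B cell marker is not reported here.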

Additional observations from a re-analysis of the deposited data

How the results depend on the processing

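The counts for RPMI-8226-R against RPMI-8226 depended on the scaling. 42 members were higher on log2(TPM + 1), on log2(TPM + 0.1) and without the length trend, and 23 when only these lines were fitted, against 15 in edgeR; 18 were lower on both TPM scales, against 38. The median was 0.24 on both TPM scales and 0.17 without the length trend, against -0.13. In RPMI-8226 against the NCI-BL2171-labelled libraries 15 were higher on both TPM scales, against 29, and the median was -0.29 on both, -0.09 with the effective-length offset and -0.13 without the length trend, against -0.02. In RPMI-8226-R against the NCI-BL2171-labelled libraries 34 were higher without the length trend, against 19, and the median was -0.067 on log2(TPM + 1), -0.069 on log2(TPM + 0.1) and -0.049 without the length trend, against -0.22. With each library left out in turn, 9 to 24 members were higher and 34 to 43 lower in RPMI-8226-R than in RPMI-8226 (median -0.24 to -0.061), 22 to 32 higher and 28 to 35 lower in RPMI-8226 against the NCI-BL2171-labelled libraries (median -0.07 to 0.04), and 16 to 21 higher and 41 to 53 lower in RPMI-8226-R against the NCI-BL2171-labelled libraries (median -0.31 to -0.15); the lone library is then assumed to vary like those of the other lines. With the replicate block 15 members were higher and 39 lower in RPMI-8226-R than in RPMI-8226, and no count moved by over 1.5 times; deviations of same-numbered libraries correlated at 0.0129, -0.00351 and 0.0327 over the 3 pairs of lines (RPMI-8226-R with RPMI-8226, RPMI-8226-R with NCI-BL2171, RPMI-8226 with NCI-BL2171) by the numbers of the titles. The names of the deposited tables reverse the NCI-BL2171 numbers, which would turn the sign of the last 2 correlations, and the block was not fitted with that numbering; with 2 numbers a line the libraries share only a number. In RPMI-8226-R against RPMI-8226, single log2 fold changes of the opposite sign were these. On log2(TPM + 1), with log2(TPM + 0.1) beside it where different, COX6A1 0.033, COX6B1 0.35, NDUFA4 0.12, NDUFA4L2 0.17 and 0.18, SDHB 0.060 and 0.061, SDHC 0.086 and 0.089 and UQCR10 0.28. Without the length trend, COX6A1 0.020, COX6B1 0.30, NDUFA4 0.049, NDUFA4L2 0.025, SDHB 0.11 and UQCR10 0.29. With the effective-length offset, COX6B1 0.031 and NDUFA5 -0.045. Among protein-coding genes, NDUFA5 -0.041. In RPMI-8226 against the NCI-BL2171-labelled libraries, single log2 fold changes of the opposite sign were these. On log2(TPM + 1), with log2(TPM + 0.1) beside it where different, ATP5F1B -0.11, ATP5MC1 -0.23, NDUFA4 -0.28 and -0.29, NDUFV3 -0.12 and -0.13, UQCR10 -0.026, UQCRH -0.098 and UQCRHL -0.15. Without the length trend, NDUFV3 -0.11. With the effective-length offset, ATP5MC1 -0.028 and NDUFA4 -0.084. In RPMI-8226-R against the NCI-BL2171-labelled libraries, single log2 fold changes of the opposite sign were these. On log2(TPM + 1), with log2(TPM + 0.1) beside it where different, ATP5MG 0.030, COX7A2 0.080, COX8A 0.17, NDUFV1 0.11 and UQCRC2 0.014. Without the length trend, COX7A2 0.29, COX8A 0.36, NDUFA4 0.059, NDUFS4 0.19 and NDUFV1 0.13. With the effective-length offset, COX8A 0.049. Among protein-coding genes, COX6A1 -0.018. With no low-count filter, COX8A 0.001. With a library left out, NDUFA5 in RPMI-8226-R against RPMI-8226 lay between -0.075 and 0.10, NDUFA4 in RPMI-8226 against the NCI-BL2171-labelled libraries lay between -0.041 and 0.20, COX6A1 in RPMI-8226-R against the NCI-BL2171-labelled libraries lay between -0.12 and 0.21, ATP5MGL in RPMI-8226-R against the NCI-BL2171-labelled libraries lay between -0.39 and 0.87 and COX8A in RPMI-8226-R against the NCI-BL2171-labelled libraries lay between -0.11 and 0.086. The causes were not tested. Over all alternatives, single named members gave 1470 values of the same direction and call, 87 that lost the call, 56 that gained it and 67 of opposite sign. With 2 libraries a line the spread rests on 3 degrees of freedom, and genes under about 10 reads, COX6B2 in RPMI-8226-R and COX7B2 in RPMI-8226 among them, give fold changes that depend on the fit.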
